A study of Mus musculus with 6 samples.

Results

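Islet hormone receptors are the cell-surface proteins through which pancreatic islet cells read gut hormones, lipids, neighbouring islet hormones and nerve signals. The 8 receptor genes described here are Glp1r, Gipr, Gcgr, Ffar1, Gpr119, Sstr3, Adra2a and Galr1. They were chosen by gene name, and their probes were found through the RefSeq accessions of the array annotation. The 8 genes are 8 of 19021 genes that entered the test, and they were read by 9 probes, of which 2 belong to Glp1r. All 9 probes entered the test, and 8 of them were well above background on all 6 arrays. The exception was the Ffar1 probe, which was not well above background on either Trsp-Ins1KO array.

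The receptors for glucagon-like peptide 1 (Glp1r), glucose-dependent insulinotropic polypeptide (Gipr) and glucagon (Gcgr) are class B G protein-coupled receptors that raise cyclic AMP in the beta cell and so increase glucose-stimulated insulin release. Gpr119, a receptor for lipid amides, also couples to cyclic AMP formation, whereas Ffar1 (GPR40), the receptor for long-chain fatty acids, couples mainly to phospholipase C and calcium. Sstr3 (somatostatin), Adra2a (adrenaline and noradrenaline) and Galr1 (galanin) couple to inhibitory G proteins, which lower cyclic AMP and restrain insulin release.

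Messenger RNA of islets was measured on 6 one-colour Agilent arrays, 2 per group, from mice labelled as male, of ICR background and 16 weeks old. All mice carried 2 floxed copies of Trsp, the gene of the selenocysteine transfer RNA on which selenoprotein synthesis depends. TrspFF mice had the floxed alleles alone, Trsp-RIPKO mice had RIP-Cre in addition, a Cre driven by a rat insulin promoter that is also known to act in some brain neurons, and Trsp-Ins1KO mice had Ins1-Cre, a Cre driven from the mouse Ins1 gene. The labels name no Cre-only control. They do not give the animals behind each array either, so the spread that p-values rest on could be a technical one. Whole islets hold several cell types, and fewer cells of a type cannot be told apart from less RNA per cell.

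Some arrays went against their labels, and every direction below rests on the names of the scanner files. In a second table of log2 values, deposited by the authors, the columns named TrspFF matched the scanner files of Trsp-Ins1KO over 2884 probes (r = 1) and the columns named Trsp-Ins1KO matched those of TrspFF, while the Trsp-RIPKO columns matched their own. Against the scanner files of their own name, the TrspFF columns had r = -0.26 and -0.44 and the Trsp-Ins1KO columns -0.26 and -0.44. The labels and the genes examined here do not settle which naming is right, and selenoprotein mRNAs were not examined for this purpose. Under the names of the table, each difference between Trsp-Ins1KO and TrspFF has about the same size and the opposite sign. Xist, the noncoding RNA of X inactivation and so a mark of female cells, was well above background on both TrspFF arrays (-0.56 and -0.32, on the log2 scale explained below) and both Trsp-RIPKO arrays (1.05 and 1.34), and was not above background on the Trsp-Ins1KO arrays, although all mice were labelled male. The Y-linked Ddx3y was present on all 6 arrays, at 0.96 and 0.78 in TrspFF, -0.53 and -0.44 in Trsp-RIPKO, while the Trsp-Ins1KO arrays were at 0.75 and 0.51. Xist thus differed between the groups in every comparison. A difference in sex cannot be told apart from genotype for any receptor, and its part in the receptor results was not tested. No probe for Trsp was found, so the deleted gene could not check the labels.

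The receptor levels below are log2 processed intensities minus the array's own 75th percentile, so that 0 stands for the 75th percentile of that array. The percentile lay at an intensity of 122 and 111 on the Trsp-Ins1KO arrays and of 203 to 247 on the other 4, whereas the spike-in controls had log2 intensities of 7.91 to 8.23 throughout. Relative to the percentile, the spike-ins read -0.04 and 0.17 in TrspFF, 0.42 and 0.45 in Trsp-RIPKO, while the Trsp-Ins1KO arrays were at 1.29 and 1.44. Every level in Trsp-Ins1KO therefore states a place within a dimmer array. Slide 1 held the TrspFF and Trsp-Ins1KO arrays and slide 2 the Trsp-RIPKO arrays, so in comparisons with Trsp-RIPKO the slide cannot be told apart from the genotype. The scanner software's quality report marked both Trsp-RIPKO arrays for evaluation and the other 4 as in range. The islet hormones were abundant on all arrays, with Ins1 between 10.24 and 11.41, Gcg between 8.77 and 9.38 and Sst between 7.04 and 7.89.

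The sequences just upstream of the transcription start are shown for the 4 receptors that were called in more than 1 comparison and have a window in the RefSeq promoter table (GRCm38.p6), since they let a reader see which sequence the differing genes carry. Each line gives the 250 bases before the annotated start, 5′ to 3′ on the gene's strand, with capitals marking matches to the motifs named after them. The windows lie at chr17:30901617-30901866 on the plus strand (Glp1r), chr11:120530477-120530726 on the plus strand (Gcgr), chrX:48674479-48674728 on the minus strand (Gpr119) and chr19:54045009-54045258 on the plus strand (Adra2a).
Glp1r: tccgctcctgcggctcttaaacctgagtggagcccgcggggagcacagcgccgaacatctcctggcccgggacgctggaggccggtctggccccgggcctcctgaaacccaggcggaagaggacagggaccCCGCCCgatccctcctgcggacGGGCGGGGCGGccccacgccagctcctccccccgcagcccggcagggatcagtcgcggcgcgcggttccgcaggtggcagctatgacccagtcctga
Gcgr: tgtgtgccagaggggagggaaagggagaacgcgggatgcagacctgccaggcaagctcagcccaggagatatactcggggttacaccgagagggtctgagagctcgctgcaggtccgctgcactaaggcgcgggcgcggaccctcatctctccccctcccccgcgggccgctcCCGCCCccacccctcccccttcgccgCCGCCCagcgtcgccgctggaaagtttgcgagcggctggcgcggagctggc
Gpr119: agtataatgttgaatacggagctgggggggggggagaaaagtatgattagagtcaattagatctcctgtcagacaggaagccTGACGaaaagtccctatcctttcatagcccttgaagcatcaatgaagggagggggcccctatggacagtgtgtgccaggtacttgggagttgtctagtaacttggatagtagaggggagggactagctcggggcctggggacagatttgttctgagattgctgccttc
Adra2a: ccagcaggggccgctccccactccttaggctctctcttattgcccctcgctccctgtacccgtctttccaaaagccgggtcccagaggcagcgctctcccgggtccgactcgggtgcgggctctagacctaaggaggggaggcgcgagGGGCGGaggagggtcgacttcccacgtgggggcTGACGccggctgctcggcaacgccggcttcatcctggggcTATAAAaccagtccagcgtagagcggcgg
Of the 8 receptor genes, 6 had a window in that table, and Gipr and Galr1 had none.

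Both strands of each window were searched for 8 motifs, and positions count back from -1, the base before the start. The GC box (GGGCGG) was held by 32.7% of all 32851 promoter windows of that length. The Glp1r window, with a GC content of 73.2% against a median of 52.4% over all windows, held GC boxes at -119, -97 and -92, the last 2 of them sharing a base. The Gcgr window (70.4% GC) held GC boxes at -77 and -51, and Adra2a (67.6% GC) held one at -102. The short form of the cyclic AMP response element (TGACG), found in 17.8% of all windows, lay at -168 in Gpr119 (50.4% GC), at -69 in Adra2a and at -9 in 1 of 2 Sstr3 windows. The TATA box (TATAAA), found in 12.4% of all windows, lay at -29 in Adra2a. The E box (CATCTG), found in 14.4% of all windows, lay at -59 in Ffar1. The full cyclic AMP response element (TGACGTCA), which contains the short form, and the core of the antioxidant response element (TGACNNNGC), which can overlap it, are in 1.55% and 10.2% of all windows and had no match in the receptor windows. The same was true of the CHOP-ATF4 composite element (TGATGNAA) and the homeodomain core (TAATTA), which 3.45% and 4.84% of all windows hold.

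Between Trsp-Ins1KO and TrspFF, Glp1r, Gpr119 and Gcgr were lower in Trsp-Ins1KO and Adra2a and Gipr were higher, so that 2 of 8 receptors rose and 3 fell at an adjusted p under 0.05. Of all 19021 genes, 45.9% were called in that comparison, 23.0% higher and 23.0% lower. Between Trsp-RIPKO and TrspFF, Gcgr and Gpr119 fell and no receptor rose, in a comparison that called 36.4% of all genes (18.9% higher and 17.5% lower). Between Trsp-Ins1KO and Trsp-RIPKO, 2 receptors were higher in Trsp-Ins1KO and 2 lower, beside 38.7% of all genes (19.3% higher and 19.4% lower). Scaling to the median in place of the 75th percentile shifted the median of all genes by -0.24 in Trsp-RIPKO against TrspFF and 0.16 between the Cre lines, and turned the split of all genes from 3592 higher and 3329 lower to 2013 and 7264, and from 3669 and 3696 to 5702 and 2351. Scaling to the spike-in controls, an alternative chosen after seeing the data, shifted the median of all genes by -0.37 in Trsp-RIPKO and -1.31 in Trsp-Ins1KO, each against TrspFF, and by -0.94 between the Cre lines. On that scale 1316, 156 and 136 genes were higher and 8085, 17939 and 17137 lower in the same order of comparisons, no receptor was called higher, and 4, 8 and 8 of the 8 receptors were called lower. Every difference below, and each word such as rose, fell, higher or lower, is therefore relative to the 75th percentile of the array. Within slide 1, fitted on the TrspFF and Trsp-Ins1KO arrays alone, the same 5 receptors were called, with adjusted p of 0.0063 for Glp1r, 0.0154 for Gcgr, 0.0124 for Gpr119, 0.0115 for Adra2a and 0.0498 for Gipr. Both knockout comparisons share the TrspFF arrays. The median difference of the 8 receptors was -0.08 in Trsp-RIPKO and -0.05 in Trsp-Ins1KO, each against TrspFF, beside -0.00 and -0.01 over all genes. All tests are limma's moderated test with Benjamini-Hochberg adjustment over all genes, with n = 2 arrays a group, and SE is the standard error of the fit.

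**Figure D1:**
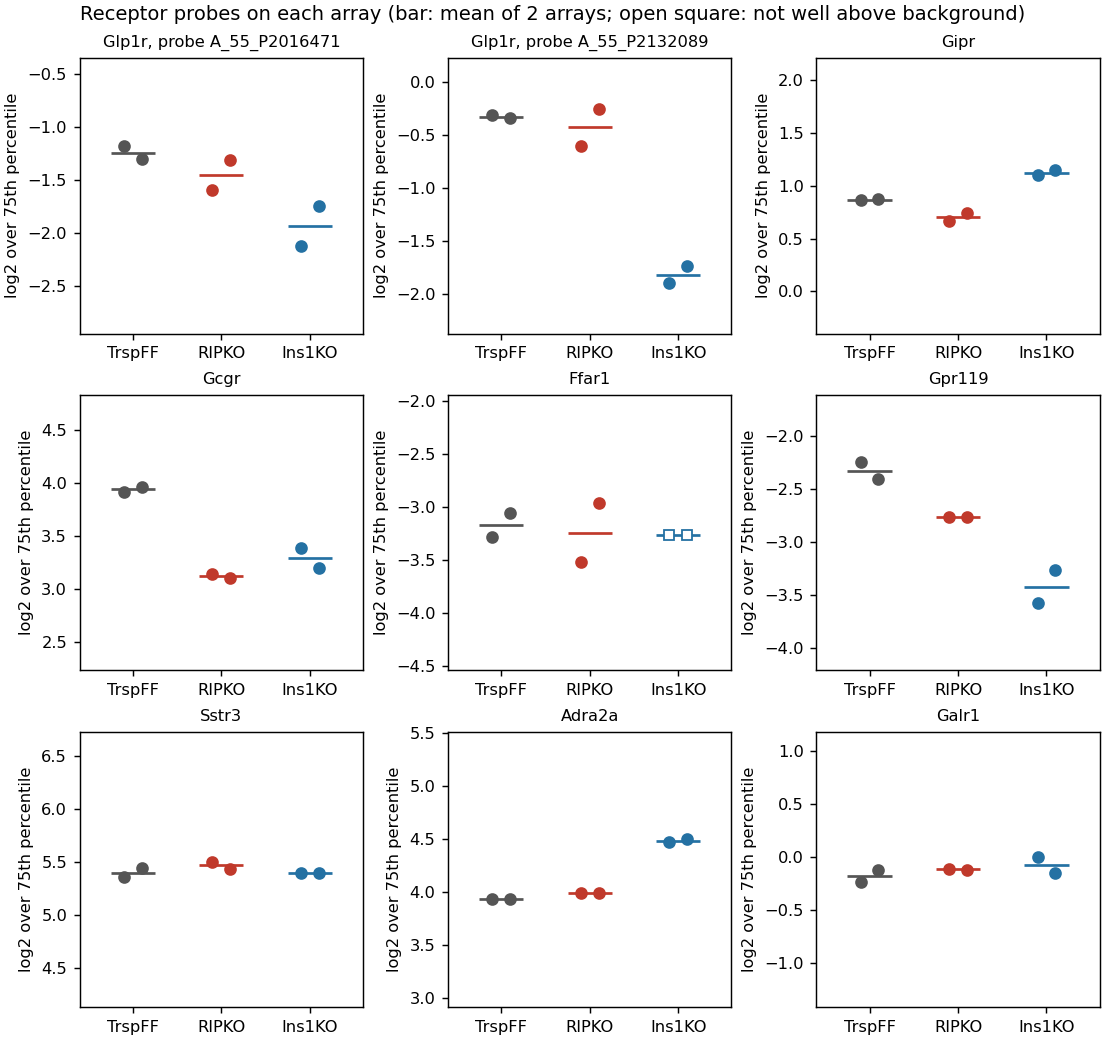
Level of each of the 9 receptor probes on the 6 arrays, as log2 intensity relative to the array's 75th percentile, with the group on the horizontal axis. Points are arrays, bars are means of 2 arrays, every panel spans the same log2 range, and open squares mark the Ffar1 probe in Trsp-Ins1KO, which was not well above background. Both Glp1r probes lie lowest in Trsp-Ins1KO, Gcgr lies highest in TrspFF, and Adra2a lies highest in Trsp-Ins1KO.

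Glp1r, the receptor of the incretin GLP-1, was lower in Trsp-Ins1KO than in TrspFF by both of its probes. The probe that stood for the gene in the test, A_55_P2132089, read -0.32 and -0.34 in TrspFF, -0.61 and -0.25 in Trsp-RIPKO, while the Trsp-Ins1KO arrays were at -1.90 and -1.74. The Trsp-Ins1KO arrays lay below all others, and the Trsp-RIPKO arrays lay on either side of the TrspFF arrays. In Trsp-Ins1KO the probe fell by 1.49 (SE 0.14, adjusted p = 0.0024) against TrspFF, to 35.5% of the TrspFF level, and by 1.39 (SE 0.14, adjusted p = 0.0029) against Trsp-RIPKO. In Trsp-RIPKO the difference from TrspFF was -0.10 (95% interval -0.45 to 0.25, adjusted p = 0.58).

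The second Glp1r probe, A_55_P2016471, read -1.18 and -1.30 in TrspFF, -1.59 and -1.31 in Trsp-RIPKO, while the Trsp-Ins1KO arrays were at -2.12 and -1.74. The order of the groups was the same by means, and again no Trsp-Ins1KO array reached the level of any other array. Fitted with every probe on its own, in which 44.6% of 23199 probes were called (21.9% higher and 22.6% lower), this probe fell by 0.69 (SE 0.17, adjusted p = 0.025) in Trsp-Ins1KO against TrspFF. Against Trsp-RIPKO its difference was -0.48 (95% interval -0.91 to -0.06, adjusted p = 0.076), where 36.1% of probes were called (17.7% higher and 18.5% lower). Between Trsp-RIPKO and TrspFF it was -0.21 (95% interval -0.63 to 0.21, adjusted p = 0.36), where 33.7% of probes were called (17.5% higher and 16.2% lower).

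The fall of Glp1r was larger on the former probe than on the latter, although both carry the same RefSeq accession, and both were dim in Trsp-Ins1KO. The former had processed intensities of 198 and 173 in TrspFF and of 32.7 and 33.1 in Trsp-Ins1KO, and the latter had 109 and 88.3 in TrspFF and 28.0 and 33.1 in Trsp-Ins1KO. Before background subtraction, the Trsp-Ins1KO spots had medians of 72 to 79 over a local background of 27 to 33.5. With another background correction (normexp, offset 50), the former probe fell by 0.64 against TrspFF, and with offset 1 it fell by 1.18, and both differences were called. The difference in size between the probes was not tested.

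Gipr, the receptor of the incretin GIP, was higher in Trsp-Ins1KO than in Trsp-RIPKO relative to the 75th percentile, and lower with spike-in scaling. Its level was 0.86 and 0.87 in TrspFF, 0.66 and 0.74 in Trsp-RIPKO, while the Trsp-Ins1KO arrays were at 1.10 and 1.14. The groups did not overlap, with Trsp-Ins1KO highest and Trsp-RIPKO lowest. Gipr was higher by 0.42 (SE 0.07, adjusted p = 0.0094) in Trsp-Ins1KO than in Trsp-RIPKO. Its rise of 0.25 (SE 0.07, adjusted p = 0.033) against TrspFF was no longer called without any 1 of the 4 arrays compared (adjusted p 0.056 to 0.16), with median scaling (0.12), without the filter on dim probes (0.068) or with normexp (0.45 with offset 50 and 0.11 with offset 1). With spike-in scaling Gipr was lower in Trsp-Ins1KO than in TrspFF (-1.05, adjusted p = 1.9e-05) and than in Trsp-RIPKO (-0.51, adjusted p = 0.0098). The difference between Trsp-RIPKO and TrspFF was -0.17 (95% interval -0.34 to 0.01, adjusted p = 0.11), and with median scaling it was -0.40 (adjusted p = 0.013).

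Gcgr, the glucagon receptor, was lower in both knockouts. It read 3.92 and 3.96 in TrspFF, 3.14 and 3.10 in Trsp-RIPKO, while the Trsp-Ins1KO arrays were at 3.39 and 3.19. Every knockout array lay below both TrspFF arrays, by more than any gap between replicates of this gene. Gcgr fell by 0.82 (SE 0.09, adjusted p = 0.0067) in Trsp-RIPKO, to 56.8% of the TrspFF level, and by 0.65 (SE 0.09, adjusted p = 0.0053) in Trsp-Ins1KO, to 63.8%. Trsp-Ins1KO differed from Trsp-RIPKO by 0.17 (95% interval -0.06 to 0.39, adjusted p = 0.19), with normexp at offset 1 by 0.31 (adjusted p = 0.043) and with spike-in scaling by -0.76 (adjusted p = 0.00085). Its ligand gene Gcg was lower by 0.56 (SE 0.08, adjusted p = 0.0054) in Trsp-Ins1KO than in TrspFF.

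Gpr119, on the X chromosome, was dim and lay lowest in Trsp-Ins1KO. Its level was -2.25 and -2.41 in TrspFF, -2.76 and -2.77 in Trsp-RIPKO, while the Trsp-Ins1KO arrays were at -3.58 and -3.27. The groups did not overlap, in the order TrspFF, Trsp-RIPKO, Trsp-Ins1KO from high to low. Gpr119 fell by 1.09 (SE 0.13, adjusted p = 0.0036) in Trsp-Ins1KO against TrspFF, by 0.66 (SE 0.13, adjusted p = 0.015) against Trsp-RIPKO, and by 0.43 (SE 0.13, adjusted p = 0.049) in Trsp-RIPKO against TrspFF.

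These Gpr119 values rest on little signal. The processed intensity was 52.0 and 41.0 in TrspFF, 31.7 and 29.9 in Trsp-RIPKO, while the Trsp-Ins1KO arrays were at 10.2 and 11.5, where spot medians were 56.5 and 61 over a local background of 31 and 30. With normexp at offset 50, Gpr119 was 0.07 higher in Trsp-Ins1KO than in TrspFF (adjusted p = 0.48), and at offset 1 its difference was -0.55 (adjusted p = 0.040). The call between Trsp-RIPKO and TrspFF was lost without any 1 of the 4 arrays compared (adjusted p 0.11 to 0.21), and that between the Cre lines was lost without either Trsp-RIPKO array (0.067). Xist, also X-linked, was higher by 1.63 in Trsp-RIPKO than in TrspFF and at least 8.27-fold lower in Trsp-Ins1KO than in TrspFF (limma adjusted p = 0.00032); its part in the Gpr119 result was not tested.

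Ffar1, the fatty acid receptor, showed no called difference. It read -3.29 and -3.06 in TrspFF, -3.52 and -2.97 in Trsp-RIPKO, and -3.26 on both Trsp-Ins1KO arrays, where it was not well above background. The groups overlapped. The difference from TrspFF was -0.07 (95% interval -0.57 to 0.43, adjusted p = 0.80) in Trsp-RIPKO. In Trsp-Ins1KO, with the probe above background on 0 of 2 arrays, the level has only an upper bound, so no size or interval is given for the comparisons with that group. Calls of Ffar1 in Trsp-Ins1KO against TrspFF appeared under normexp at offset 50, where it was higher (adjusted p = 1.3e-05), and under spike-in scaling, where it was lower (adjusted p = 3.1e-06), both on the same probe below background.

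Adra2a, the inhibitory receptor of adrenaline and noradrenaline, was higher in Trsp-Ins1KO than in either other group relative to the 75th percentile, although not in intensity. Its level was 3.94 on both TrspFF arrays, 3.99 and 4.0 in Trsp-RIPKO, while the Trsp-Ins1KO arrays were at 4.48 and 4.50. The replicates of each group lay close together, and the Trsp-Ins1KO arrays stood clear of the rest. Adra2a rose by 0.55 (SE 0.06, adjusted p = 0.0035) against TrspFF, to 146% of the TrspFF level, and by 0.49 (SE 0.06, adjusted p = 0.0050) against Trsp-RIPKO. In Trsp-RIPKO the difference from TrspFF was 0.06 (95% interval -0.10 to 0.22, adjusted p = 0.49). The difference between the Cre lines was 0.17 with normexp at offset 50 (adjusted p = 0.057). Before scaling, the processed intensity of Adra2a averaged 3566 in TrspFF, 3337 in Trsp-RIPKO and 2610 in Trsp-Ins1KO. With spike-in scaling Adra2a was lower in Trsp-Ins1KO than in TrspFF (-0.75, adjusted p = 0.00051) and than in Trsp-RIPKO (-0.44, adjusted p = 0.023).

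Sstr3, the somatostatin receptor of the list, read 5.36 and 5.44 in TrspFF, 5.51 and 5.44 in Trsp-RIPKO and 5.40 on both Trsp-Ins1KO arrays. All 6 arrays lay close together. The difference from TrspFF was 0.07 (95% interval -0.11 to 0.25, adjusted p = 0.45) in Trsp-RIPKO and -0.00 (95% interval -0.18 to 0.17, adjusted p = 0.96) in Trsp-Ins1KO. With normexp at offset 50, Sstr3 was lower in Trsp-Ins1KO than in TrspFF (-0.23, adjusted p = 0.013) and than in Trsp-RIPKO (-0.37, adjusted p = 0.00047), and with spike-in scaling the same differences were -1.30 and -1.01, both called.

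Galr1, the galanin receptor, also lay close to the same level on every array. It read -0.24 and -0.12 in TrspFF, -0.11 and -0.13 in Trsp-RIPKO, while the Trsp-Ins1KO arrays were at -0.00 and -0.16, and the groups overlapped. Its difference from TrspFF was 0.06 (95% interval -0.16 to 0.28, adjusted p = 0.60) in Trsp-RIPKO and 0.10 (95% interval -0.12 to 0.32, adjusted p = 0.37) in Trsp-Ins1KO.

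**Figure D2:**
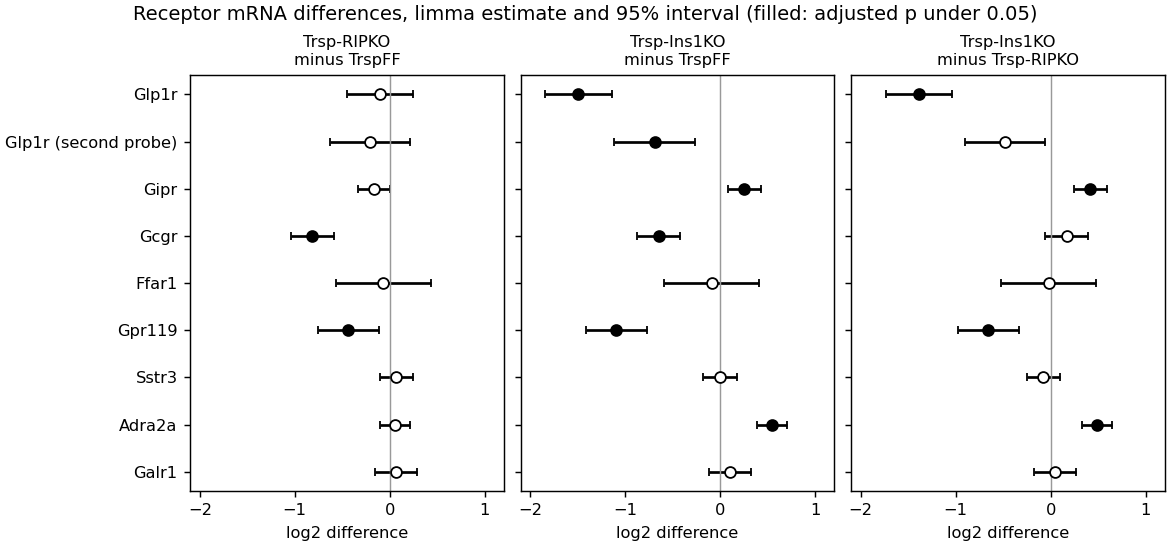
Difference of each receptor in the 3 comparisons, in log2 units, as limma's estimate with its 95% interval; filled points have an adjusted p under 0.05. The largest departure from 0 is the fall of Glp1r by 1.49 in Trsp-Ins1KO against TrspFF, and its second probe fell by 0.69; the Ffar1 points that involve Trsp-Ins1KO rest on a probe below background in that group.

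Non-overlap of the arrays of 2 groups was common among all genes. Between Trsp-RIPKO and TrspFF the arrays did not overlap for 1 receptor that was higher and 3 that were lower, beside 77.4% of all genes (38.1% higher and 39.2% lower). Between Trsp-Ins1KO and TrspFF this held for 2 higher and 3 lower receptors, beside 76.9% of all genes (37.9% higher and 39.0% lower). Between Trsp-Ins1KO and Trsp-RIPKO it held for 3 higher and 3 lower, beside 71.8% (35.4% higher and 36.4% lower).

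The genes whose pattern over the 6 arrays was most like that of a receptor were found by the root mean square (RMS) difference after centring each of 13369 other named genes on its TrspFF mean. As these genes were picked for likeness on the same arrays, their differences from TrspFF follow from the choice. Closest to Glp1r was Fbln5 (RMS 0.12), encoding the extracellular matrix protein fibulin 5, with a difference of -1.65 in Trsp-Ins1KO against TrspFF, followed by Rem1 (0.14), Cnot7 (0.16), Rarres2 (0.16) and Hdc (0.17). For Gcgr the closest genes were Coa4 (0.05) and Ddx31 (0.05), and for Adra2a Mvb12a (0.02) and Zswim8 (0.02). Gipr was closest to Snrnp40 (0.02) and Fbxo21 (0.03), Gpr119 to Fam72a (0.09) and Pycrl (0.09), Ffar1 to 2210016F16Rik (0.05) and Cbl (0.06), Sstr3 to Aimp1 (0.03) and Chchd6 (0.03), and Galr1 to Dpp9 (0.02) and Arhgap8 (0.03).

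The counts of the gene lists that follow stand beside the shares of all genes given above, which were 18.9% higher and 17.5% lower in Trsp-RIPKO against TrspFF, 23.0% and 23.0% in Trsp-Ins1KO against TrspFF, and 19.3% and 19.4% between the Cre lines. Among islet and gut peptide ligands and their processing enzymes, more genes were called lower than higher in both knockouts. Of 22 tested ligand and processing genes, 1 rose and 7 fell in Trsp-RIPKO against TrspFF (4.55% and 31.8%, median -0.22), and 2 rose and 10 fell in Trsp-Ins1KO (9.09% and 45.5%, median -0.14). In Trsp-RIPKO, Cck, encoding cholecystokinin, rose by 3.38 (SE 0.14, adjusted p = 0.00099), while Ghrl (ghrelin) fell by 1.74, Ucn3 (urocortin 3) by 1.21 and Pyy (peptide YY) by 1.10. In Trsp-Ins1KO, Cck rose by 1.37 and Iapp (amylin) by 0.83, while Vip (vasoactive intestinal peptide) fell by 2.52 with 1 of 2 arrays above background. Fap, a relative of the incretin-degrading enzyme DPP4, fell by 1.48 in Trsp-Ins1KO, also with 1 of 2 arrays above background, and its call was lost with normexp at offset 50. Sct (secretin) was at least 2.10-fold lower there, and its call was lost in the same setting. Ucn3, Iapp, Pyy, Ghrl and Fap stand in the lists of cell type markers too. Between the Cre lines, 8 of the 22 were higher in Trsp-Ins1KO and 8 lower.

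A further list joins the transcription factor CREB, its relatives and coactivators with genes that cyclic AMP signalling is known to induce, and 9 of its 16 tested genes were called higher in Trsp-Ins1KO than in TrspFF. Beside these 9 (56.2%, against 23.0% of all genes) 1 fell, with a median of 0.52 beside -0.01 over all genes, and 9 rose and 2 fell against Trsp-RIPKO (median 0.34). With spike-in scaling 1 of the 16 was higher and 10 lower than in TrspFF. Nr4a1, an immediate early nuclear receptor, rose by 1.84 (SE 0.13, adjusted p = 0.0015) against TrspFF, Fos by 1.51 (SE 0.08, adjusted p = 0.00089) and the kinase gene Sik1 by 1.49 (SE 0.15, adjusted p = 0.0028). Creb1 itself was lower (-0.71, adjusted p = 0.0073), a call lost with normexp at offset 50. In Trsp-RIPKO, 3 of the 16 rose and 1 fell against TrspFF (median 0.11). Rgs2, which encodes an inhibitor of Gq signalling and stands in the desensitisation list too, rose by 1.16 (SE 0.07, adjusted p = 0.0021) in Trsp-RIPKO, and Fos fell by 0.54 (adjusted p = 0.011), a call lost without either TrspFF array or without the second Trsp-RIPKO array (Trsp-RIPKO 2).

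Cyclic AMP is made by adenylyl cyclases under Gs and Gi proteins. Of 16 tested genes of this step, 3 rose and 1 fell in Trsp-RIPKO against TrspFF (median 0.12), and 5 rose and 3 fell in Trsp-Ins1KO (31.2% and 18.8%, median 0.24). Gnai2, an inhibitory G protein subunit, rose by 1.04 (SE 0.07, adjusted p = 0.0016) in Trsp-Ins1KO, whereas Gnai1, another one, was lower (-0.56, adjusted p = 0.0061), a call lost with normexp at offset 50. Effectors and breakdown of cyclic AMP, with 20 tested genes, gave 2 higher and 4 lower in Trsp-RIPKO and 4 higher and 5 lower in Trsp-Ins1KO (20% and 25%, close to the 23.0% of all genes in each direction). In Trsp-Ins1KO, Pde4d, a cyclic AMP phosphodiesterase, rose by 1.99 (SE 0.21, adjusted p = 0.0032), and Rapgef3, which encodes the cyclic AMP sensor EPAC1, rose by 1.30 (SE 0.09, adjusted p = 0.0016). Pde8b rose by 1.29, and Pde3b, 1 of the 5 lower genes, fell by 0.69. In Trsp-RIPKO, where 4 genes of this list fell, Pde4c was 1 of the 2 that rose, by 0.76 (SE 0.08, adjusted p = 0.0060).

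The Gq arm, through which Ffar1 signals, had 16 tested genes. In Trsp-Ins1KO 7 rose and 4 fell against TrspFF (43.8% and 25%, median 0.24), with Itpr2 and Plcb3, an inositol trisphosphate receptor and a phospholipase C, up by 0.90 and 0.82, and Prkca, a protein kinase C, and Itpr1 down by 0.69 and 0.64 (differences -0.69 and -0.64). In Trsp-RIPKO 1 rose and 2 fell, among them the protein kinase C gene Prkcb, which fell by 0.75 (SE 0.07, adjusted p = 0.0053). Genes of receptor desensitisation (19 tested) gave 4 higher and 4 lower in Trsp-RIPKO and 7 higher and 4 lower in Trsp-Ins1KO (36.8% and 21.1%), where Rgs2 rose by 0.87 and Rgs12 by 0.80 and Rgs5 fell by 0.60. Channels and exocytosis genes under cyclic AMP control (19 tested) gave 3 higher and 4 lower in Trsp-RIPKO and 8 higher and 3 lower in Trsp-Ins1KO (42.1% and 15.8%). The calcium-activated cation channel gene Trpm5, which is also among the beta cell markers, fell by 0.98 in Trsp-RIPKO and by 1.70 in Trsp-Ins1KO, and the exocytosis genes Syt9 and Snap25 rose by 1.01 and 0.95 in Trsp-Ins1KO.

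Other receptors were called in both directions in Trsp-Ins1KO, at shares close to those of all genes. Among the 45 tested of 91 other islet G protein-coupled receptors, 10 rose and 1 fell in Trsp-RIPKO against TrspFF (22.2% and 2.22%, beside 18.9% and 17.5% of all genes), and 11 rose and 11 fell in Trsp-Ins1KO (24.4% each way, beside 23.0%). In Trsp-RIPKO, Gabbr2 (a GABA-B receptor subunit) rose by 0.97 and Cnr2 (cannabinoid receptor 2) by 0.95. The one that fell, Galr3, a relative of Galr1, fell by 0.55 (SE 0.07, adjusted p = 0.0081), and its call was lost without TrspFF 1. In Trsp-Ins1KO, S1pr1 and Adora2a, receptors of sphingosine 1-phosphate and adenosine, rose by 0.95 and 0.87, Sucnr1, the succinate receptor, was at least 2.24-fold higher (limma adjusted p = 0.0021), and Cnr1, cannabinoid receptor 1, was at least 4.54-fold lower than in TrspFF (adjusted p = 0.00044). Between the Cre lines 9 were higher in Trsp-Ins1KO and 16 lower (20% and 35.6%), with a median of -0.20, or -0.06 with genes below background at their bound. Of 7 other class B peptide receptors, 2 rose and 1 fell in each knockout against TrspFF, and every one of these calls was lost without the first TrspFF array (TrspFF 1). The 3 calls in Trsp-RIPKO were also lost without either Trsp-RIPKO array. Glp2r, 1 of the 2 that rose there, entered the test through Trsp-RIPKO alone, so its direction was largely set by the filter. Vipr1, a receptor of vasoactive intestinal peptide, was 0.51 higher in Trsp-Ins1KO than in Trsp-RIPKO (adjusted p = 0.0070).

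**Figure D3:**
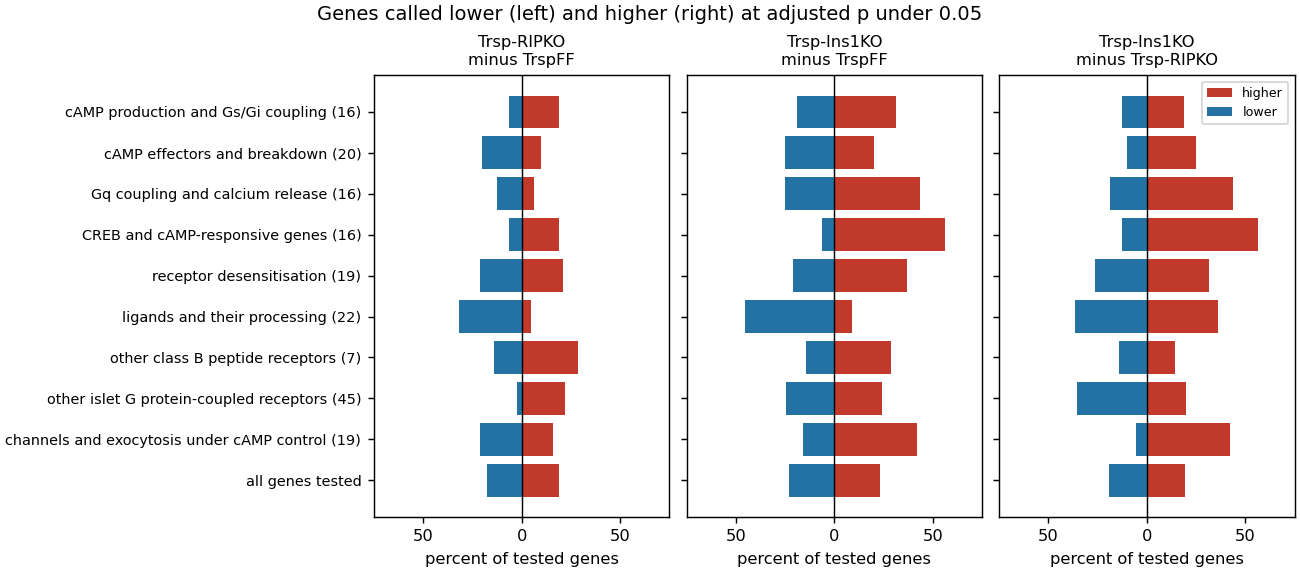
Share of the tested genes of each pathway list called lower (blue, left) and higher (red, right) in each comparison, in percent, with the number of tested genes in brackets and all genes in the lowest bars. In Trsp-Ins1KO against TrspFF, the list of CREB and cyclic AMP-responsive genes had 9 of 16 called higher and the ligand list 10 of 22 called lower, beside 23.0% of all genes in each direction.

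Markers of several cell types also differed between the groups. The summed level of the beta cell markers, as a multiple of the 75th percentile, was 3434 and 3824 in TrspFF, 3761 and 4017 in Trsp-RIPKO, while the Trsp-Ins1KO arrays were at 6006 and 6572. The brightest genes weigh most in such sums, here Ins1, Ins2 and Iapp. In Trsp-Ins1KO they were 0.99, 0.86 and 0.83 higher than in TrspFF. Of 17 beta cell markers, none rose and 9 fell in Trsp-RIPKO against TrspFF, and 6 rose and 8 fell in Trsp-Ins1KO. For the alpha cell list the sums were 733 and 762 in TrspFF, 632 and 680 in Trsp-RIPKO, then 542 and 522 in Trsp-Ins1KO. Of its 11 markers, 1 was higher and 0 lower in Trsp-RIPKO, and 0 were higher and 4 lower in Trsp-Ins1KO. The alpha sums rest largely on Gcg, which was not called in Trsp-RIPKO against TrspFF (-0.21, limma adjusted p = 0.082). Delta cell sums were, by group as before, 284 and 280, then 245 and 257, then 177 and 171, with 6 of 9 higher and 1 lower in Trsp-RIPKO and 2 higher and 5 lower in Trsp-Ins1KO. In Trsp-RIPKO the sum and most calls went opposite ways. The delta sums rest largely on Sst, the 1 marker called lower there (-0.27, limma adjusted p = 0.046). That call was lost with normexp at offset 1, without the filter on dim probes, with every probe on its own and with the replicate block. It was also lost without either TrspFF array and without either Trsp-RIPKO array.

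Markers of exocrine and other cells of the pancreas differed too. Acinar markers summed to 24.7 and 25.5 in TrspFF, 48.6 and 52.9 in Trsp-RIPKO, while the Trsp-Ins1KO arrays were at 45.7 and 43.2, with 23 of 26 higher in Trsp-RIPKO and 19 higher and 1 lower in Trsp-Ins1KO. Endothelial sums were 70.0 and 70.9, then 85.9 and 84.5, then 119 and 120, with 6 of 14 higher and 0 lower in Trsp-RIPKO and 10 higher and 1 lower in Trsp-Ins1KO. Macrophage sums were 150 and 148, then 199 and 212, then 264 and 283, with 3 of 11 markers higher and 1 lower in Trsp-RIPKO and 4 higher and 0 lower in Trsp-Ins1KO. These sums rest largely on Itgam, with group means of 7.10, 7.59 and 8.02. Its calls in both knockouts against TrspFF were lost with the mean over its 3 probes. Fibroblast and stellate sums were 64.9 and 69.3, then 75.8 and 74.9, then 81.7 and 75.5, with 11 of 14 higher in Trsp-RIPKO, and 2 higher and 10 lower in Trsp-Ins1KO, where the sum and the calls went opposite ways. Small intestine markers gave 16 of 22 higher and 1 lower in Trsp-RIPKO, and 12 higher and 3 lower in Trsp-Ins1KO, but 6 of these 12 and 1 of these 3 had a probe below background throughout both groups and so have no measured direction. Of the 16, Fabp2, Lct, Krt20, Apob, Guca2b, Defa20, Defa3, Defa5 and Defa17 were above background in no other group. They entered the test through Trsp-RIPKO alone, so their direction there was largely set by the filter. The part of these shifts in the receptor results was not tested.

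**Figure D4:**
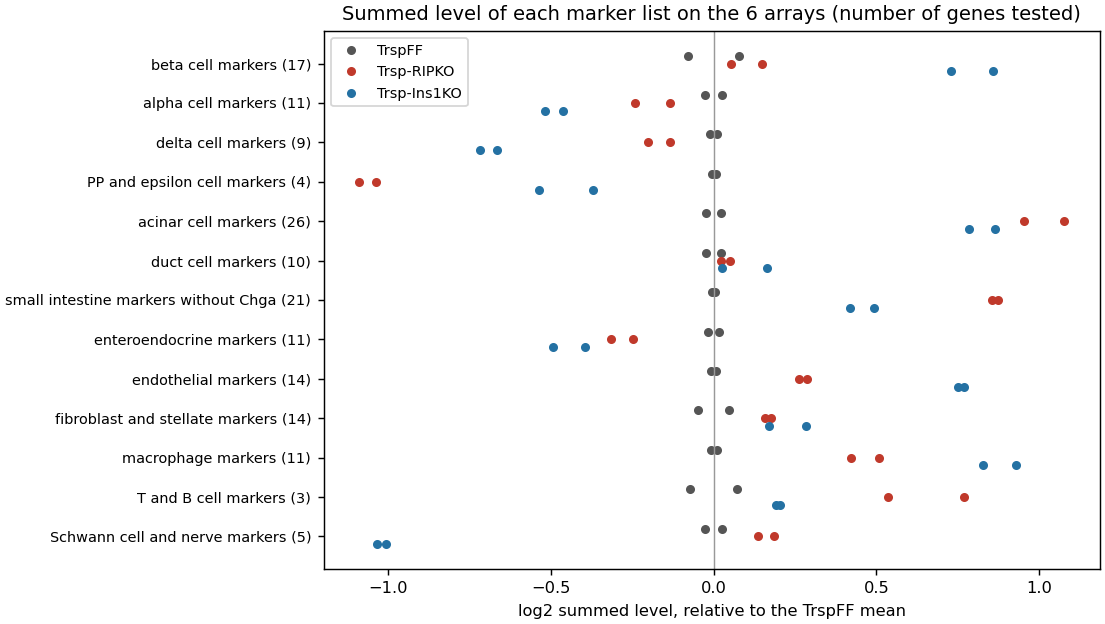
Summed level of each marker list on each of the 6 arrays, as log2 relative to the mean of the 2 TrspFF arrays, with the number of tested genes in brackets. Beta cell marker sums lie highest in Trsp-Ins1KO, delta cell sums lowest there, and acinar sums lie higher in both knockouts than in TrspFF. The brightest genes weigh most in each sum, such as Ins1, Ins2 and Iapp for beta cells and Itgam for macrophages.

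Apart from spike-in scaling and the authors' table under its own column names, several receptor differences held in every setting. The fall of Gcgr stayed called in both knockouts under each of 11 other settings and each of 6 left-out arrays, and so did the fall of the tested Glp1r probe in Trsp-Ins1KO against TrspFF and against Trsp-RIPKO. The rise of Adra2a in Trsp-Ins1KO against TrspFF held likewise, with values from 0.26 to 0.58 over the 11 settings, as did the higher Gipr in Trsp-Ins1KO than in Trsp-RIPKO, with values from 0.19 to 0.59. With spike-in scaling the falls of Gcgr and Glp1r stayed called, whereas Adra2a and Gipr were lower in Trsp-Ins1KO, as given above. In the authors' table under its own column names, Gcgr was 0.65 higher in Trsp-Ins1KO than in TrspFF, Glp1r 1.49 higher, and Adra2a was lower (-0.55). Those names also ended the call of Gcgr in Trsp-RIPKO against TrspFF (-0.17, adjusted p = 0.19). Between the Cre lines they ended that of Gipr (0.16, adjusted p = 0.11), and those of Glp1r and Adra2a, which changed sign.

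**Figure D5:**
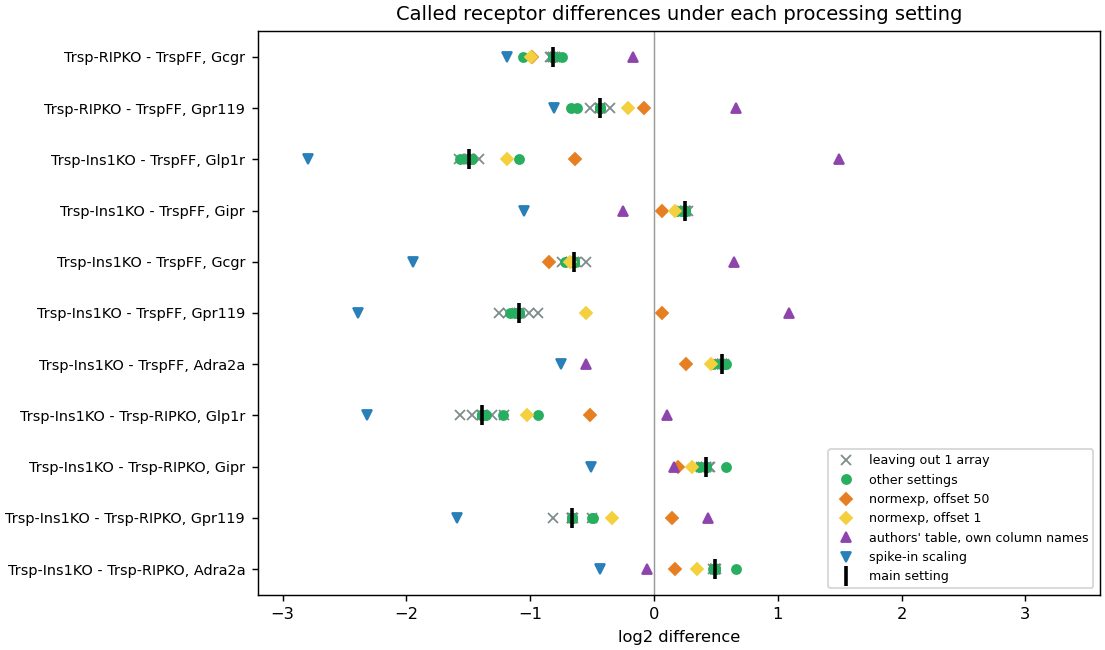
Each receptor difference called at an adjusted p under 0.05, in log2 units, under each processing setting: the black bar is the value reported, crosses leave out 1 array, diamonds use normexp background correction, upward triangles take the authors' table by its own column names and downward triangles scale to the spike-in controls. The upward triangles lie on the other side of 0 for every difference between Trsp-Ins1KO and TrspFF, and normexp with offset 50 moves Gpr119 across 0. All downward triangles lie below 0, those of Adra2a and Gipr included.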

How the data were processed

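Islet RNA was labelled with Cy3 using an Agilent low-input kit, per the labels' protocols, and each sample was hybridised to 1 array. Scanning output came from Feature Extraction 10.7.3.1, per the file headers. The deposited scanner files hold a processed intensity for each spot, with background subtracted and no scaling between arrays, and flags that mark outliers, saturation (0 spots) and signal well over background. A deposited series table holds 39485 log2 values per array, centred per probe by the authors, with its scaling unknown. Its column medians were 0.087 and 0.141 (named TrspFF), 0.011 and -0.029 (Trsp-RIPKO) and -0.079 and -0.045 (Trsp-Ins1KO).

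From the processed intensity, log2 values were taken and the 75th percentile of each array over non-control probes was subtracted. Control spots and outliers were dropped and spots of a probe averaged, leaving 39426 probes, of which RefSeq accessions named 26053 (66.1%). A probe was tested if, in 1 or more groups, every array read it well above background (23199 probes). The tested probe with the highest mean stood for its gene (19021 genes, 13370 with a symbol). limma 3.58.1 in R 4.3.3 fitted a mean per group over all 6 arrays, with contrasts and eBayes, two-sided, Benjamini-Hochberg over all genes, called at an adjusted p under 0.05. The fit was tested on simulated data. "At least" marks a fold against a group in which no array read the probe above background. There each dim array counts at its own signal or at the faintest signal that passed as well above background on it, whichever is greater. Tables and plots used Python 3.11.15, pandas 2.3.3, numpy 2.4.6 and, for plots, matplotlib 3.10.9.

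The receptors and the 23 gene lists were chosen with earlier results of these data known. Named from each list are at most the 3 called genes with the greatest difference in each direction per comparison, and for each receptor the 5 (Glp1r) or 2 genes most alike. Alternatives were normexp, quantile and median scaling, other filters and probe choices, a trended robust variance, only the groups compared, a replicate block, the authors' table and leaving out each array. Normexp used spot and background medians, since the files hold no mean signal, and offset 1 and scaling to each array's spike-in controls were chosen after seeing the data. With 2 arrays a group, the number of arrays limits the precision.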

Additional observations from a re-analysis of the deposited data

Results flagged for a closer look

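4 receptors are listed because their difference from TrspFF was not the same in the 2 Cre lines, by limma's test of that difference, which equals Trsp-Ins1KO against Trsp-RIPKO and cannot be told apart from the slide. For Glp1r the effects differed by -1.39 (adjusted p = 0.0029), with both Trsp-Ins1KO arrays below both Trsp-RIPKO arrays. Its second probe was not called in limma's fit of every probe (-0.48, adjusted p = 0.076). For Gpr119 they differed by -0.66 (adjusted p = 0.015), again with both arrays below. For Adra2a they differed by 0.49 (adjusted p = 0.0050), with both arrays above. For Gipr they differed by 0.42 (adjusted p = 0.0094), with both arrays above. These differences are relative to the 75th percentile of each array, and with spike-in scaling those of Adra2a and Gipr were -0.44 and -0.51.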

How the results depend on the processing

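Over the 8 receptors and 3 comparisons, 227 values under other settings kept their direction and their side of the threshold, 13 lost the call, 4 gained it and 17 changed sign. Here and below, values that changed sign are counted only as such, whether or not their call changed. Leaving out 1 array gave 127, 10 and 7 for the same, lost and changed sign. The authors' table under its own column names changed the sign of 18. Among the values that kept their sign, it ended 2 calls, added 2 and left 2 as they were. With the sign kept, the 2 lost were Gcgr in Trsp-RIPKO against TrspFF (-0.17, adjusted p = 0.19) and Gipr between the Cre lines (0.16, adjusted p = 0.11). The 2 gained were Gipr in the former comparison (-0.42, adjusted p = 0.0095) and Gcgr in the latter (0.82, adjusted p = 0.0067). Glp1r and Adra2a changed sign in both comparisons, and also gained the call in the former and lost it in the latter. Spike-in scaling, chosen after seeing the data, changed the sign of 10. Among the values that kept their sign, it added 6 calls and left 8. Values are log2 differences. In Trsp-RIPKO against TrspFF, sign changes were Ffar1 at 0.13 with normexp at offset 50 and 0.19 at offset 1, and Sstr3 at -0.17, Adra2a at -0.18 and Galr1 at -0.18 with median scaling. In Trsp-Ins1KO against TrspFF they were Ffar1 at 0.53 and Gpr119 at 0.068 with offset 50, Ffar1 at 0.36 with offset 1 and Sstr3 at 0.067 with quantile normalization. Between the Cre lines they were Ffar1 at 0.40, Gpr119 at 0.14 and Galr1 at -0.054 with offset 50, Ffar1 at 0.17 and Galr1 at -0.095 with offset 1, Ffar1 at 0.15 with quantile normalization, and Ffar1 at 0.15 and Sstr3 at 0.092 with median scaling. With the authors' column names, Trsp-RIPKO against TrspFF gave Glp1r 1.39, Ffar1 0.021, Gpr119 0.66, Adra2a -0.49 and Galr1 -0.040. The same names gave, in Trsp-Ins1KO against TrspFF, Glp1r 1.49, Gipr -0.25, Gcgr 0.65, Ffar1 0.088, Gpr119 1.09, Sstr3 0.0050, Adra2a -0.55 and Galr1 -0.10, and between the Cre lines Glp1r 0.10, Ffar1 0.067, Gpr119 0.43, Adra2a -0.058 and Galr1 -0.062. With spike-in scaling, sign changes were Sstr3 at -0.30, Adra2a at -0.31 and Galr1 at -0.31 in Trsp-RIPKO against TrspFF, Gipr at -1.05, Adra2a at -0.75 and Galr1 at -1.20 in Trsp-Ins1KO against TrspFF, and Gipr at -0.51, Gcgr at -0.76, Adra2a at -0.44 and Galr1 at -0.89 between the Cre lines. The column names exchange 2 groups, and spike-in scaling shifts every gene of an array alike. For the other sign changes the cause was not tested. Leaving out 1 array, the differences that changed sign ranged, in Trsp-RIPKO against TrspFF, from -0.28 to 0.075 for Glp1r and from -0.34 to 0.21 for Ffar1. In Trsp-Ins1KO against TrspFF they ranged from -0.20 to 0.026 for Ffar1 and from -0.044 to 0.035 for Sstr3, and between the Cre lines from -0.29 to 0.25 for Ffar1 and from -0.037 to 0.12 for Galr1.

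The 2 receptors called in Trsp-RIPKO against TrspFF became 1, with Gpr119 lost, under normexp at offset 50, normexp at offset 1, no filter on dim probes, the mean over the probes of a gene, every probe on its own, a trended robust variance and the replicate block, and 4 with the authors' column names. The 4 receptors called between the Cre lines became 2 with those names. Spike-in scaling called 4, 8 and 8 receptors in the 3 comparisons, all lower, and 18095 genes in Trsp-Ins1KO against TrspFF and 17273 between the Cre lines. Leaving out 1 array gave 1 to 2 receptors in Trsp-RIPKO against TrspFF, 4 to 5 in Trsp-Ins1KO against TrspFF and 3 to 4 between the Cre lines. Of all genes, the calls in the same order were 6921, 8737 and 7365, and 862 to 7692, 3791 to 8242 and 4176 to 6578 when 1 array was left out. The lowest of these, 862, came without TrspFF 1, and 1347, 1534 and 2874 came without TrspFF 2, Trsp-RIPKO 2 and Trsp-RIPKO 1. Without the filter on dim probes, 2692, 13943 and 11645 of 32494 genes were called, with 10242 higher and 3701 lower in the second. Normexp at offset 50 called 13974 genes in Trsp-Ins1KO against TrspFF (9202 higher and 4772 lower) and 12065 between the Cre lines (8293 higher and 3772 lower). The replicate block called 6598, 8489 and 7050 genes and changed no receptor call other than that of Gpr119. Replicate differences of the groups had r of 0.093, 0.079 and 0.065 over genes, so replicate numbers were not taken to pair the samples. With only probes well above background on all 6 arrays, Ffar1 had no value. Gpr119, Ffar1 and, in Trsp-Ins1KO, Glp1r were limited by signal close to background.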
